A study of Mus musculus with 18 samples.

Results

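Bone marrow-derived macrophages carrying the T166A form of PPARg were compared with wild-type (WT) macrophages in 6 of the 18 libraries of the series, 3 for each genotype. The libraries were selected by the cell type and genotype in their labels, and no measured value entered the choice. WT cells came from C57BL/6J mice and T166A cells from PPARg T166A mice, in which alanine replaces a threonine of PPARg that can be phosphorylated. In both groups marrow from femurs and tibiae had been cultured for 7 days with 50 ng/ml of M-CSF, the growth factor that turns marrow cells into macrophages, and the labels name no other allele or agent. Batch B1 held replicates 1 and 2 of each genotype, and batch B2 replicate 3. Flow cytometry was routinely done on such cultures and found F4/80 and CD11b on 95 to 99% of cells. The sources used here do not give the mice's age or whether the groups were littermates. Nor do the labels say clearly whether replicates are separate mice or cultures, and p-values then measure only the spread between these samples.

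PPARg is a nuclear receptor that binds fatty acid derivatives, pairs with RXR on DNA and switches on genes of lipid uptake and storage. In macrophages it is also known for restraining inflammatory genes. Type I interferons act through a cell surface receptor on promoters that hold an interferon-stimulated response element, and the genes they induce encode antiviral proteins such as the Ifit, Oas and p200 families. Macrophages make a low basal level of many of these proteins without infection.

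The libraries held 40072513 to 44152639 counts over 26165 genes, of which 13139 were abundant enough to be tested. Levels are in CPM, a gene's counts scaled to a library total of 1e+06, and a positive log2 fold change means higher in T166A (SE, its standard error). The macrophage gene Lyz2, which encodes lysozyme, was at 20169 to 36179 CPM, and Adgre1 and Itgam, which encode the F4/80 and CD11b proteins, were at 1416 to 1925 CPM and 416 to 877 CPM. The extraction protocol in the labels speaks of adipocytes, but the adipocyte gene Adipoq had no count in any of the 6 libraries. Pparg itself (chromosome 6, 115360879 to 115490404, GRCm38) was at 60.9, 60.2 and 52.3 CPM in WT replicates 1, 2 and 3 and at 60.3, 58.9 and 55.8 CPM in T166A replicates 1, 2 and 3. The groups overlapped, and the log2 fold change was -0.02 (SE 0.12, edgeR adjusted p = 0.968). A point mutation does not show in such counts, and the genotype labels are not checked by them.

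T166A replicate 3 stood apart from the other 5 libraries. Its correlation with them across genes was 0.9128 to 0.9384 (log2 CPM), against 0.9522 to 0.9771 among the others, and it lay alone on the first principal component, which held 44.5% of the variance. It carried transcripts of fibroblasts and of peripheral nerve. The collagen gene Col1a1 was at 251 CPM there and at 2.08 to 15.0 CPM elsewhere, Col3a1 at 106 against 0.549 to 3.42 CPM, and Sparc, which encodes a collagen-binding matrix protein, at 104 against 0.453 to 9.05 CPM. The neurofilament genes Nefm and Nefl were at 78.4 and 65.4 CPM there and had no count in any other library. In all, 89 genes had at least 5 CPM in T166A replicate 3 and under 1 CPM in each other library, against 8 such genes in WT replicate 1 and 0 in the remaining 4.

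The 20 fibroblast and stromal markers summed to 630 CPM in T166A replicate 3, to 100 CPM in WT replicate 1 and to 9.93 to 20.8 CPM in the other 4 libraries, with 1 of the 20 at 0 in T166A replicate 3. The 12 neuronal markers, a list chosen after seeing the data, summed to 225 CPM there and to 0.82 to 5.13 CPM elsewhere, with 7 to 10 of the 12 at 0 in the other libraries. WT replicate 1 departed in another way. Nos2 and Arg1, which encode arginine-consuming enzymes of inflammatory and alternatively activated macrophages, were at 50.4 and 42.2 CPM in it and at or under 1.72 CPM in the other 5 libraries. Il1a, a cytokine gene, was at 30.0 CPM in WT replicate 1 against 0.344 to 2.70 CPM, and Serpinb2, a plasminogen activator inhibitor, at 53.1 against 0 to 3.12 CPM. Bulk counts cannot tell fewer cells of a type from less RNA per cell. No fold change is printed for Col1a1, Col3a1, Sparc, Nos2, Arg1, Il1a or the genes named only as cell type markers. This was chosen after seeing that, of 34 cell type and stromal genes tested, 18 turned sign in at least 1 of 17 alternatives.

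**Figure D1:**
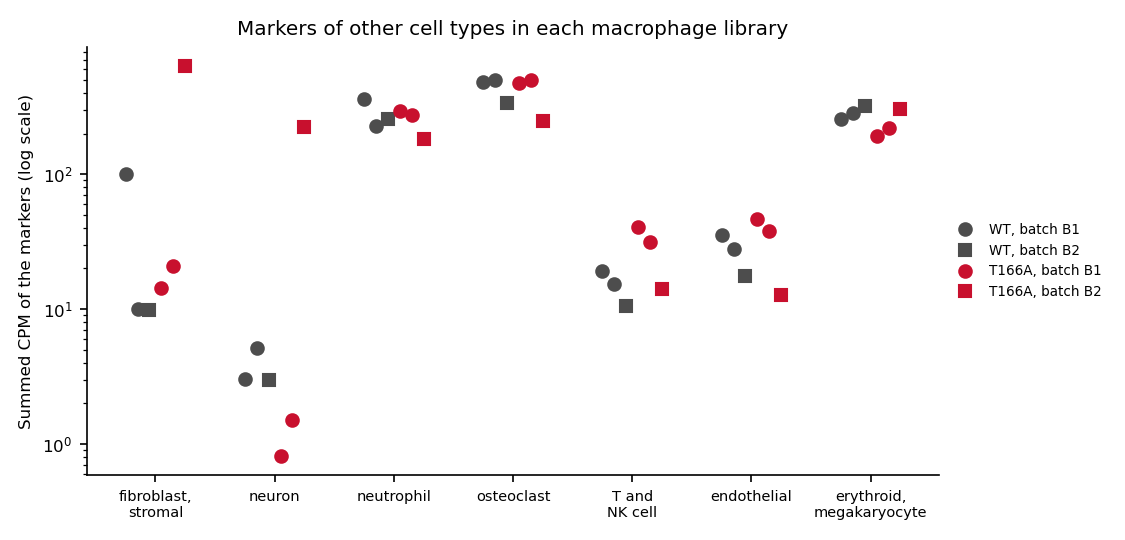
Summed CPM of the markers of 7 cell types (log axis) in each of the 6 libraries, grey for WT and red for T166A, circles for batch B1 and squares for batch B2. T166A replicate 3 (red square) holds 630 CPM of fibroblast markers and 225 CPM of neuronal markers, and WT replicate 1 holds 100 CPM of fibroblast markers.

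The promoters of the interferon-induced genes that carry the main result are shown first, because several of these genes passed the test and a response element can be read in their sequence. Each is the stretch of 250 bases before an annotated RefSeq start site (GRCm38.p6), written 5′ to 3′ on the gene's strand. Capitals mark the core of the interferon-stimulated response element, searched as GAAANNGAAA on both strands, so that TTTCNNTTTC is the same core on the other strand. Ifit1 (chr19:34640639-34640888, plus strand) and Ifit3 (chr19:34583279-34583528, plus strand) each hold a pair of cores, and the Ifi203 promoter at chr1:173942493-173942742 (minus strand) holds 1. Ifit2 (chr19:34550444-34550693, plus strand) is shown for contrast, since neither of its 2 listed promoters holds these letters. By the gene spans given below, the Ifit3 and Ifi203 windows lie within the gene, and the Ifit2 window runs into it. The starts used for these genes are therefore not the outermost ones.
Ifit1: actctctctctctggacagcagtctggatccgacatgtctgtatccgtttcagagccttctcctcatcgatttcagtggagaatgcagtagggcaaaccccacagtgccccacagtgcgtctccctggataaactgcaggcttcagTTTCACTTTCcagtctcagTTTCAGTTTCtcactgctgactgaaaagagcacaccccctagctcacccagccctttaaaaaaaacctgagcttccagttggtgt
Ifit3: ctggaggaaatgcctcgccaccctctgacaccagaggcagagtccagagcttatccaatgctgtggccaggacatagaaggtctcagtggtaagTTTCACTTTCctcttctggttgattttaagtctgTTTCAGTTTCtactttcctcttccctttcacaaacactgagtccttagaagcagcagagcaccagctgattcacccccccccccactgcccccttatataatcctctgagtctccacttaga
Ifi203: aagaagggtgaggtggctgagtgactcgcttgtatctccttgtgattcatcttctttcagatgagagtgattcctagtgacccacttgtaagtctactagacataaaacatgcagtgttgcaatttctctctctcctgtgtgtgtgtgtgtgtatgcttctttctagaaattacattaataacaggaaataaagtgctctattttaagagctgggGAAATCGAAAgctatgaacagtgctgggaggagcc
Ifit2: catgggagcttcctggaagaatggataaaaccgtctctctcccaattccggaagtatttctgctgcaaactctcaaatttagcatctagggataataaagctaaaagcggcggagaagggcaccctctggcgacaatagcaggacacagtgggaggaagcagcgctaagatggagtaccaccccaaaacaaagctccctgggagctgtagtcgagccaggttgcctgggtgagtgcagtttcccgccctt

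Relative to the start site, the first marked bases lay at -104 and -85 in Ifit1 and at -156 and -122 in Ifit3. In Ifi203 the core began at -35, and the other listed Ifi203 promoter held none. Over the whole window of 300 bases (250 before and 50 after the start), the core was present in 1079 of 27025 genes with a listed promoter (3.99%) and in 421 of 10403 such genes among those tested (4.05%). It was present in 4 of 5 Ifit genes, 8 of 10 p200 family genes and 9 of 10 guanylate-binding protein and immunity-related GTPase genes with a promoter. The share was 12 of 24 among antiviral effectors and 0 of 7 among Ms4a genes. The promoters of Ms4a4c, H2-Q7 and Sptbn1 held no core. A direct repeat of AGGTCA with 1 base between, the arrangement bound by PPARg with RXR, was present in 13 of the 27025 genes (0.0481%). Of the 9 genes that passed the test, 7 have a listed promoter, Plau not among them, and 0 of the 7 held the repeat. With so low a share over all genes, its absence from 7 genes cannot be read as a result. All of these are letters in a window, and they say nothing of binding.

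The comparison of T166A with WT macrophages found interferon-induced genes higher in T166A cells and the urokinase gene Plau lower. By edgeR's quasi-likelihood test, with batch as a covariate and a Benjamini-Hochberg adjusted p under 0.05, 8 genes were higher (0.0609% of the genes tested) and 1 was lower (0.00761%). The 8 were Ifit1, Ifit2, Ifit3, Ifi203, Ms4a4c, H2-Q7, H2-Q9 and Sptbn1. H2-Q9 had exactly the counts of H2-Q7 in each library, so the 9 calls are 8 measurements. At an unadjusted p under 0.05, 856 genes were higher (6.51%) and 831 lower (6.32%). Every T166A library lay above every WT library for 1050 genes (7.99%) and below every WT library for 769 (5.85%). These shares are the background for the counts of listed genes given below. DESeq2, with the same model, called 248 genes higher (1.89%) and 143 lower (1.09%), the 9 among them. By edgeR, 0 of the 9 calls were kept without the batch term, with the transcripts of each gene summed, or with WT replicate 1, WT replicate 3 or either of T166A replicates 1 and 2 left out. No other gene passed in these 6 fits, in which 859 to 2303 genes had an unadjusted p under 0.05. With a replicate block edgeR called 8 higher and 2 lower, since Ifi203 was lost, Dock11, a guanine nucleotide exchange factor, was added as higher and Arg1 as lower. Arg1 was at 42.2 CPM in WT replicate 1 and at most 1.72 CPM in the other 5 libraries. The fold changes given below are the model's, fitted to TMM-scaled counts with batch as a term, and values within B1 or B2 are differences of TMM-scaled log2 CPM with a prior count of 2. They therefore differ from ratios of the printed CPM and of their means.

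Ifit proteins bind viral RNA and block its translation. Ifit2 (chromosome 19, 34550550 to 34576534) was at 52.8, 45.7 and 49.8 CPM in WT replicates 1, 2 and 3 and at 141, 142 and 108 CPM in T166A replicates 1, 2 and 3. The lowest T166A library, that of replicate 3, was above the highest WT library. WT libraries averaged 49.4 ± 3.58 CPM and those of T166A 130.4 ± 19.8 CPM (SD, n = 3 each). Ifit2 rose by a fitted 2.56-fold (edgeR log2 fold change 1.36, SE 0.15, adjusted p = 0.0331). Ifit1 (chromosome 19, 34640889 to 34650009) was at 31.7, 33.9 and 46.3 CPM in WT and 72.7, 70.6 and 99.4 CPM in T166A libraries, so that in both genotypes the batch B2 library was the highest. Ifit1 rose 2.12-fold (edgeR log2 fold change 1.09, SE 0.13, adjusted p = 0.0331). Ifit3 (chromosome 19, 34583119 to 34588982) was at 64.2, 55.3 and 75.0 CPM in WT and 127, 117 and 148 CPM in T166A libraries, again with the B2 library highest in each. It rose 1.98-fold (edgeR log2 fold change 0.98, SE 0.12, adjusted p = 0.0422).

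The genes next to them on chromosome 19, Ifit1bl1 and Ifit3b, missed the threshold. Absence of overlap between genotypes was a condition for choosing Ifit1bl1, and it is not a result for that gene. Ifit1bl1 was at 3.77 to 4.52 CPM in WT and 9.70 to 10.3 CPM in T166A libraries (edgeR log2 fold change 1.23, SE 0.21, adjusted p = 0.107). Ifit3b, named after its values were seen, was at 8.05 to 12.7 CPM in WT and 19.8 to 22.2 CPM in T166A libraries. Of the 6 listed Ifit genes, Ifit1bl2 was too low to be tested. The 5 tested members had a median log2 fold change of 1.12, against -0.02 over all genes tested. It was 1.21 within batch B1 and 1.0 within batch B2. DESeq2 called 5 of the 5 higher, against 1.89% of all genes tested. Reads shared among near-identical Ifit copies could have been split or lost, and the sources used here do not say how they were counted.

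**Figure D2:**
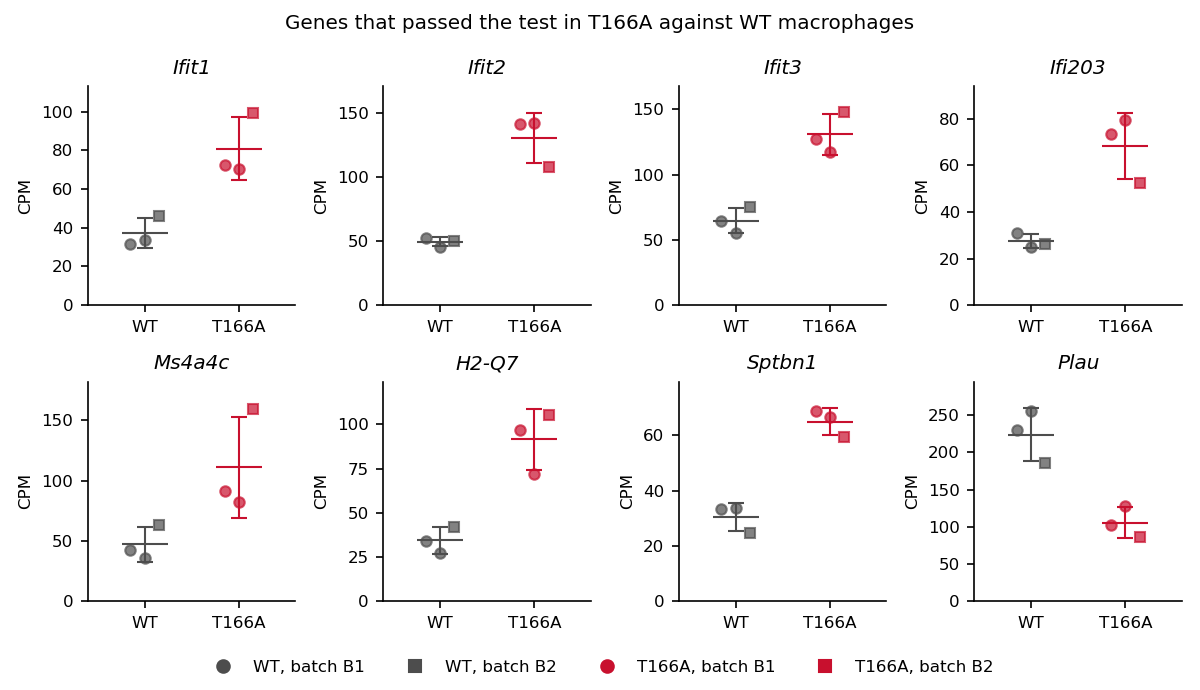
CPM of 8 genes that passed the test in each library, with circles for batch B1, squares for batch B2, and horizontal bars and whiskers for the mean and SD of 3 libraries. H2-Q9, with the same counts as H2-Q7, is not drawn. In the 7 genes that rose, the lowest T166A library lies above the highest WT library. For Plau the 3 T166A libraries sit between 85.8 and 128 CPM, all below the WT libraries.

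The p200 proteins sense DNA or act on transcription, and their genes lie side by side on chromosome 1. Ifi203 (chromosome 1, 173920400 to 173942866) was at 30.9, 25.2 and 26.4 CPM in WT and 73.5, 79.5 and 52.3 CPM in T166A libraries. The groups did not overlap, and T166A replicate 3 was the lowest of its group. Ifi203 rose 2.40-fold (edgeR log2 fold change 1.27, SE 0.16, adjusted p = 0.0430). With a replicate block it no longer passed (edgeR adjusted p = 0.0677, range over the alternatives 1.08e-09 to 0.480). Mndal (chromosome 1, 173857215 to 173880382) was at 53.5 to 56.4 CPM in WT and 99.3 to 109 CPM in T166A libraries, with little spread in either group, and just missed the threshold (edgeR log2 fold change 0.89, SE 0.12, adjusted p = 0.0556). Ifi208 was at 2.90 to 4.39 CPM in WT and 10.4 to 11.7 CPM in T166A libraries (edgeR log2 fold change 1.56, SE 0.22, adjusted p = 0.0666).

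Ifi204 was at 106, 102 and 135 CPM in WT and 176, 184 and 247 CPM in T166A libraries (edgeR log2 fold change 0.78, adjusted p = 0.0666). Ifi206 had the greatest log2 fold change of the family, 1.90 (SE 0.28, edgeR adjusted p = 0.0666), from 4.87, 5.60 and 7.89 CPM to 28.9, 23.4 and 17.7 CPM. The 2 batches differed in size for this gene, with a log2 fold change of 2.31 in B1 and 1.06 in B2. Ifi207 likewise had 1.33 in B1 and 0.52 in B2, with 228, 212 and 132 CPM in the T166A libraries against 85.7 to 89.7 CPM in WT. The difference between batches did not pass its own test for either gene (edgeR adjusted p = 0.346 for Ifi206 and 0.334 for Ifi207). All 11 tested p200 genes of the 15 listed had a positive log2 fold change, and 1 of them passed the test. In 10 of the 11 every T166A library lay above every WT library, against 7.99% of all genes tested. The exception was Aim2, the sensor that forms inflammasomes on DNA, at 12.8 to 14.4 CPM in WT and 11.2 to 19.1 CPM in T166A libraries. The median log2 fold change was 1.06, and DESeq2 called 9 of the 11 higher, against 1.89% of all genes tested. Members of this family are near-identical in stretches, so that the split of reads among them is uncertain.

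None of the 33 tested antiviral effectors passed the edgeR test. At an unadjusted p under 0.05, 26 were higher, against 6.51% of all genes tested. A positive log2 fold change was seen in 32, with a median of 0.59 over the group. The group's median was 0.72 within B1 and 0.34 within B2. DESeq2 called 21 of the 33 higher and 1 lower, against 1.89% and 1.09% of all genes tested. Zbp1, a sensor of left-handed nucleic acid (chromosome 2, 173206612 to 173218959), was at 54.5, 47.3 and 66.7 CPM in WT and 107, 89.0 and 112 CPM in T166A libraries (edgeR log2 fold change 0.85, SE 0.14, adjusted p = 0.107). Isg15, a ubiquitin-like modifier, was at 54.9 to 71.5 CPM in WT and 84.9 to 140.5 CPM in T166A libraries, with a log2 fold change of 0.70 (edgeR adjusted p = 0.125). Slfn5 of the Schlafen family was at 122 to 154 CPM in WT and 234 to 294 CPM in T166A libraries (edgeR log2 fold change 0.98, adjusted p = 0.107). Its relative Slfn1 was at 34.7 to 60.1 and 80.0 to 112 CPM (edgeR log2 fold change 0.97, adjusted p = 0.107). The single effector with a negative value was Ifi27, at 80.6 to 113 CPM in WT and 45.5 to 77.3 CPM in T166A libraries.

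Guanylate-binding proteins and immunity-related GTPases attack the vacuoles of intracellular pathogens and respond to interferon gamma as well as type I interferon. All 16 had a positive log2 fold change, with a median of 0.78, and none passed the edgeR test. At an unadjusted p under 0.05, 12 were higher, against 6.51% of all genes tested. Irgm1 was at 42.0 to 60.1 CPM in WT and 70.3 to 98.4 CPM in T166A libraries (edgeR log2 fold change 0.75, SE 0.14, adjusted p = 0.134). Gbp9 was at 10.8 to 14.6 and 18.5 to 30.5 CPM (edgeR log2 fold change 0.92, adjusted p = 0.179). In this group the batches gave unlike medians, 1.02 in B1 and 0.27 in B2.

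Regulators and sensors of the pathway had a median log2 fold change of 0.07, with 0.32 in B1 and -0.03 in B2. It was 0.32 without T166A replicate 3 and ran from 0.06 to 0.32 over the 17 alternatives, against -0.02 for all genes tested. Of 23 tested, 0 passed and 8 were higher at an unadjusted p under 0.05, against 6.51% of all genes tested. Every T166A library lay above every WT library for 7 of the 23 and below for 1. Over all genes tested these shares were 7.99% and 5.85%. Ifih1, the sensor MDA5 of long double-stranded RNA, was at 23.2 to 28.1 CPM in WT and 44.6 to 55.1 CPM in T166A libraries (edgeR log2 fold change 0.92, SE 0.16, adjusted p = 0.125). Irf7, the factor that amplifies type I interferon genes, was at 372, 244 and 333 CPM in WT and 700.0, 575 and 483 CPM in T166A libraries (edgeR log2 fold change 0.85, adjusted p = 0.176). Neither gene overlapped between groups.

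**Figure D3:**
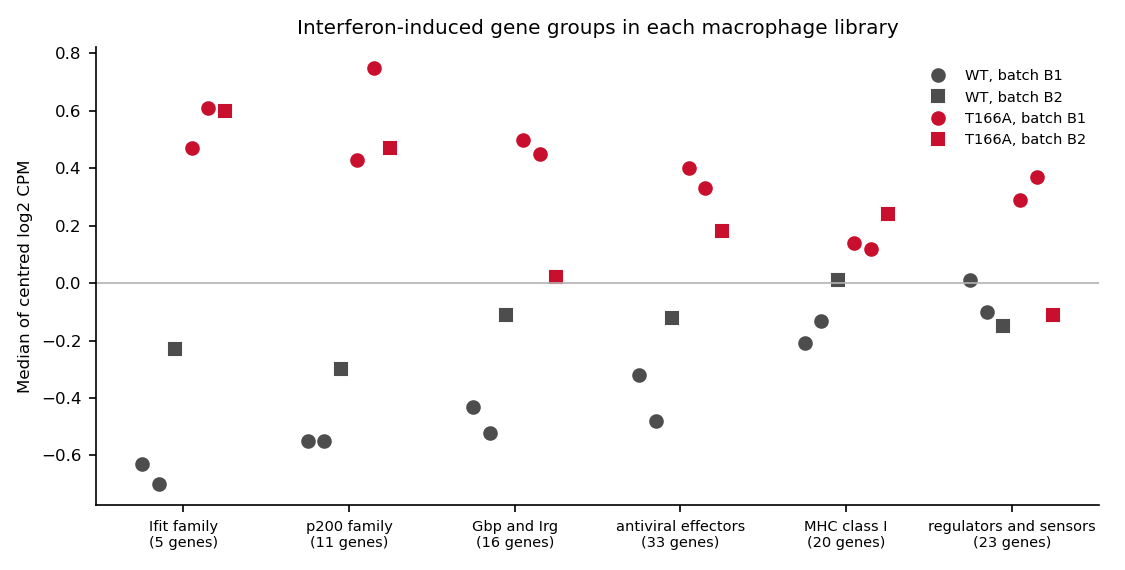
For each of 6 interferon-related gene groups and each library, the median over the group's genes of log2 CPM after subtraction of each gene's mean over the 6 libraries. The lowest T166A library lies above the highest WT library in the first 5 groups, with the narrowest gap for MHC class I, where WT replicate 3 is at 0.01 and T166A replicate 2 at 0.12. In the regulators T166A replicate 3, at -0.11, lies among the WT libraries.

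Among MHC class I genes, the nonclassical H2-Q7 (chromosome 17, 35439140 to 35443773) was at 34.2, 27.0 and 42.2 CPM in WT and 96.9, 72.1 and 105 CPM in T166A libraries. The groups did not overlap. WT libraries averaged 34.4 ± 7.59 CPM and those of T166A 91.5 ± 17.3 CPM (SD, n = 3 each). H2-Q7 rose by a fitted 2.61-fold (edgeR log2 fold change 1.39, SE 0.16, adjusted p = 0.0331). H2-Q7 and H2-Q9 cannot be told apart in these counts. With transcripts summed their log2 fold changes were 1.23 and 1.39. Of the other class I genes, H2-T22 had the smallest p, at a log2 fold change of 0.35 (edgeR adjusted p = 0.318). The median over the 20 genes of the group was 0.21, and over 10 MHC class II genes it was 0.05, with 0.28 in B1 and -0.39 in B2. The class II invariant chain gene Cd74 was at 4456, 4275 and 2467 CPM in WT and 5870, 5338 and 1970 CPM in T166A libraries, so that batch B2 was low in both genotypes.

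Ms4a4c (chromosome 19, 11404717 to 11427246) encodes a 4-pass membrane protein of the Ms4a family. It was at 42.1, 35.4 and 63.5 CPM in WT and 91.7, 82.5 and 159 CPM in T166A libraries, with the B2 library highest in each genotype. Ms4a4c rose 2.28-fold (edgeR log2 fold change 1.19, SE 0.13, adjusted p = 0.0331), with 1.17 in B1 and 1.23 in B2 on the log2 scale. Its relatives Ms4a6b and Ms4a6c had log2 fold changes of 0.53 and 0.47 (edgeR adjusted p = 0.178 and 0.193), and the 8 tested genes of the family had a median of 0.47, of which 1 passed.

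Sptbn1 (chromosome 11, 30099395 to 30268384) encodes beta-II spectrin of the membrane skeleton. It was at 33.3, 33.6 and 24.8 CPM in WT and 68.8, 66.8 and 59.3 CPM in T166A libraries, and rose 2.10-fold (edgeR log2 fold change 1.07, SE 0.13, adjusted p = 0.0331). Its transcript, of 8238 bases, is among the long ones, and the call ended when each library's trend with transcript length was removed (edgeR log2 fold change 0.67, adjusted p = 0.161, range over the alternatives 1.06e-11 to 0.445). Among the 19 tested membrane skeleton and actin-binding genes it was the only one that passed, and the group's median went from 0.28 to 0.06 with the trend removed.

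The dependence on transcript length was seen in most libraries. Spearman's rho across genes between transcript length and the library's departure from the mean of the 6 was 0.41 and 0.39 in T166A replicates 1 and 2, -0.17 in T166A replicate 3, and 0.06, -0.36 and -0.45 in WT replicates 1, 2 and 3. Genes of one library are not independent, and rho is given without a test. The log2 fold change of T166A over WT followed length with a rho of 0.45, of 0.45 within B1 and of 0.12 within B2. Its median was -0.26 over 1254 genes of up to 1 kb and 0.34 over 1331 genes of more than 6 kb. At an unadjusted p under 0.05, 27.6% of the longest genes were higher and 18.3% of the shortest were lower. What sets this trend was not tested.

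The named genes of long transcripts moved by unlike amounts when the trend was removed. Birc6, an inhibitor of apoptosis of 15768 bases, had a log2 fold change of 0.88 before and 0.28 after, and Nfat5, the tonicity-responsive transcription factor (13380 bases), 0.82 and 0.25. Sptbn1 went from 1.07 to 0.67 and the coactivator gene Ncoa2 from 0.73 to 0.55. The interferon-induced groups had median lengths of 2200 to 2816 bases, against 2752 bases for all genes tested, and their median log2 fold changes before and after were 1.12 and 1.22 for the Ifit family, 1.06 and 1.02 for the p200 family, 0.78 and 0.79 for the Gbp and Irg genes, and 0.59 and 0.61 for the antiviral effectors. The nuclear RNA Neat1 (20771 bases) went against the trend. It was at 666, 450.4 and 483 CPM in WT and 322, 307 and 249 CPM in T166A libraries (edgeR log2 fold change -0.90, SE 0.15, adjusted p = 0.12). With the trend removed its log2 fold change was -1.55 (edgeR adjusted p = 0.00195, range over the alternatives 3.01e-05 to 0.735).

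**Figure D4:**
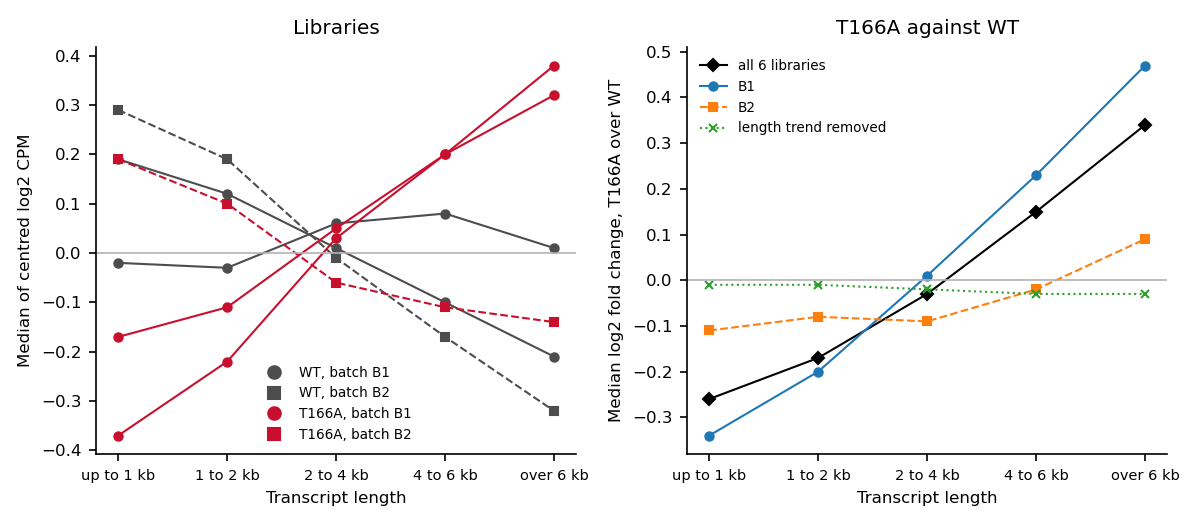
Left, median log2 CPM of the genes in 5 classes of transcript length, after subtraction of each gene's mean over the 6 libraries, for each library. Right, median log2 fold change of T166A over WT in the same classes, which runs from -0.26 to 0.34 over all libraries and from -0.01 to -0.03 after removal of the trend.

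Plau (chromosome 14, 20836662 to 20843388) was the single gene that passed the edgeR test as lower. It encodes urokinase, a secreted protease that turns plasminogen into plasmin at the cell surface. Plau was at 229.7, 256 and 185 CPM in WT and 103, 128 and 85.8 CPM in T166A libraries, with the B2 library lowest in each genotype and no overlap between them. The mean went from 224 ± 35.8 to 105 ± 21.2 CPM (SD, n = 3 each; log2 fold change -1.12, SE 0.14, edgeR adjusted p = 0.0383). Within B1 the value was -1.08, within B2 it was -1.21, and it was -1.06 with the length trend removed.

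The genes of the urokinase receptor and of a plasminogen-binding partner had negative log2 fold changes without passing the test. Absence of overlap between genotypes was a condition for choosing both, and it is not a result for them. Plaur, the receptor, was at 64.6, 73.3 and 45.6 CPM in WT and 32.9, 41.7 and 30.6 CPM in T166A libraries (edgeR log2 fold change -0.82, SE 0.15, adjusted p = 0.129). Anxa2, the annexin that binds plasminogen activators at the membrane, was at 865 to 982 CPM in WT and 581 to 630 CPM in T166A libraries (edgeR log2 fold change -0.60, SE 0.12, adjusted p = 0.163). Of 14 tested genes of the urokinase system and of plasminogen regulation, 13 had a negative log2 fold change, against 6946 of all 13139 tested. At an unadjusted p under 0.05, 7 of the 14 were lower, against 6.32% of all genes tested, and 1 passed the edgeR test. The median was -0.62, with -0.60 in B1 and -0.51 in B2. Serpinb2, an inhibitor in this list, was at 53.1 CPM in WT replicate 1 and at most 3.12 CPM in the other 2 WT libraries.

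No gene of the chemokine, growth factor or metalloprotease lists passed the edgeR test in either direction. The median log2 fold change was -0.08 over 17 tested growth factor genes, of which 7 were positive, and 0.04 over 15 metalloproteases and their inhibitors, of which 8 were. The monocyte chemokine gene Ccl2 (chromosome 11, 82035577 to 82037452) was at 30.2, 27.6 and 24.1 CPM in WT and 9.58, 12.6 and 12.3 CPM in T166A libraries, and was the gene nearest to the threshold among those lower (edgeR log2 fold change -1.28, SE 0.17, adjusted p = 0.0556). Ccl7, which is recognised by the same receptor, was at 4.64 to 6.96 and 2.90 to 3.88 CPM (edgeR log2 fold change -0.81, adjusted p = 0.297). Over 21 tested chemokine genes the median was -0.34, and 6 were lower at an unadjusted p under 0.05. Their transcripts are short, with a median of 1083 bases, and with the length trend removed the group's median was -0.13. Of all tested genes of 1 to 2 kb, 11.2% were lower at that unadjusted threshold. Spp1, which encodes osteopontin, was at 1257 to 1682 CPM in WT and 716 to 1115 CPM in T166A libraries (edgeR log2 fold change -0.75, adjusted p = 0.175). Mmp9, a gelatinase, was at 44.1, 21.1 and 11.4 CPM in WT and 13.02, 14.5 and 1.67 CPM in T166A libraries, and these groups overlapped (edgeR log2 fold change -1.72, adjusted p = 0.175). Pdgfc was higher, at 7.26 to 9.34 CPM in WT and 15.0 to 25.0 CPM in T166A libraries (edgeR log2 fold change 1.08, adjusted p = 0.126).

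Markers of alternative activation gave no common direction, with a median of 0.01 over 19 genes. Chil3, a chitinase-like protein, was at 3.39 to 8.48 CPM in WT and 0.917 to 2.09 CPM in T166A libraries (edgeR log2 fold change -1.68, adjusted p = 0.174). Egr2, a transcription factor of alternative activation, was at 70.3, 81.8 and 41.3 CPM in WT and 39.8, 51.3 and 18.7 CPM in T166A libraries (edgeR log2 fold change -0.90, adjusted p = 0.139). The inflammatory cytokines and their feedback genes had a median of -0.09 over 29 genes, of which 2 were lower at an unadjusted p under 0.05. Over all genes tested 6.32% were lower at that threshold, so that these 2 lie near the background. Tnf was at 8.36 to 9.81 and 5.57 to 8.57 CPM (edgeR log2 fold change -0.53, adjusted p = 0.374).

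Genes that PPARg is known to drive in macrophages had a median log2 fold change of -0.05 over 14 tested, 0 passing in either direction. Gdf15, a stress cytokine, was at 10.1 to 12.97 CPM in WT and 4.4 to 9.35 CPM in T166A libraries (edgeR log2 fold change -0.67, SE 0.25, adjusted p = 0.334), and Tsc22d3, a glucocorticoid-responsive regulator, had a log2 fold change of -0.36 (edgeR adjusted p = 0.302). The fatty acid transporter gene Cd36, named after its values were seen, was at 779, 989 and 586 CPM in WT and 737, 977 and 442 CPM in T166A libraries. The lipid droplet gene Plin2, also named after its values were seen, was at 1338 to 1642 and 1239 to 1637 CPM. For LXR targets the median was -0.05 over 11 genes. The cholesterol exporter gene Abca1 was at 455, 418 and 302 CPM in WT and 831, 760.3 and 373 CPM in T166A libraries (edgeR log2 fold change 0.65, adjusted p = 0.193), with 0.87 in B1 and 0.20 in B2, and 0.17 with the length trend removed.

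Lipid synthesis did not differ past the threshold. Fatty acid synthesis genes had a median of 0.14 over 19 tested and cholesterol synthesis genes one of 0.03 over 22. Acaca, the acetyl-CoA carboxylase that commits carbon to fatty acids, was at 11.8, 8.17 and 5.94 CPM in WT and 19.8, 13.3 and 8.74 CPM in T166A libraries, and these overlapped (edgeR log2 fold change 0.64, SE 0.23, adjusted p = 0.309; 0.23 with the length trend removed). Acsl3, an acyl-CoA synthetase of lipid droplets, was at 6.41 to 8.52 and 8.31 to 17.8 CPM (edgeR log2 fold change 0.68, adjusted p = 0.358). The coregulators that work with PPARg had a median of 0.40 over 14 genes, of 0.70 in B1 and of 0.02 in B2. Ncoa2, a coactivator, was at 26.6 to 30.2 CPM in WT and 41.8 to 55.0 CPM in T166A libraries (edgeR log2 fold change 0.73, adjusted p = 0.168). Its group has long transcripts, with a median of 4901 bases, and the group's median was 0.21 when the length trend was removed.

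Genes of glucose use and of growth had negative medians. Slc2a1, the glucose transporter GLUT1 (chromosome 4, 119108745 to 119137330), was at 110.2, 92.4 and 64.1 CPM in WT and 58.5, 54.1 and 48.0 CPM in T166A libraries (edgeR log2 fold change -0.74, SE 0.14, adjusted p = 0.129; -0.76 with the length trend removed). Pgk1, a glycolytic kinase, was at 374 to 441 and 235 to 329 CPM (edgeR log2 fold change -0.57, adjusted p = 0.200). Of 27 glycolysis and hypoxia-induced genes, 14 were lower and 0 higher at an unadjusted p under 0.05. The shares over all genes tested were 6.32% lower and 6.51% higher. The group's median was -0.37, and -0.27 with the length trend removed, and 0 passed the edgeR test. DNA replication and mitosis genes had a median of -0.43 over 36, made up of -0.62 in B1 and -0.01 in B2. Tk1, thymidine kinase, was at 15.2 to 27.9 CPM in WT and 7.66 to 11.3 CPM in T166A libraries (edgeR log2 fold change -1.14, SE 0.21, adjusted p = 0.129).

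The groups of ribosomal and respiratory chain genes have short transcripts. All 34 cytosolic ribosomal protein genes had a negative log2 fold change, with a median of -0.28, and 32 of 33 respiratory chain and ATP synthase genes did so, with a median of -0.27. Their transcripts have median lengths of 834 and 927 bases, and with the length trend removed the medians were -0.07 and -0.08. Rpl38 was at 181 to 209 CPM in WT and 94.0 to 168 CPM in T166A libraries (edgeR log2 fold change -0.67, adjusted p = 0.175), and Ndufa2, a subunit of complex I, at 81.3 to 116 and 47.2 to 89.2 CPM (edgeR log2 fold change -0.74, adjusted p = 0.168). NRF2 targets, which answer oxidative stress, had a median of -0.29 over 20 genes. Hmox1, the heme oxygenase, was at 636 to 797 and 475 to 650 CPM in these (edgeR log2 fold change -0.41, adjusted p = 0.226).

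The remaining genes nearest to the threshold belong to several functions. Pde7b, a phosphodiesterase that degrades cyclic AMP, was at 8.56 to 13.4 CPM in WT and 15.7 to 29.4 CPM in T166A libraries (edgeR log2 fold change 1.11, SE 0.18, adjusted p = 0.107). Podoplanin, a membrane glycoprotein encoded by Pdpn, was at 38.1 to 57.9 CPM in WT and 25.1 to 36.7 CPM in T166A libraries (edgeR log2 fold change -0.63, adjusted p = 0.156). Degs2, a sphingolipid desaturase, was at 104.6 to 137 CPM in WT and 78.4 to 92.97 CPM in T166A libraries (edgeR log2 fold change -0.60, adjusted p = 0.168). Absence of overlap between genotypes was a condition for choosing these 3 genes, and it is not a result for them. The respiratory chain gene Uqcr10 was at 58.3 to 64.9 and 35.9 to 44.0 CPM (edgeR log2 fold change -0.69, adjusted p = 0.132), and Nop10, of the ribonucleoproteins that modify ribosomal RNA, at 33.7 to 38.1 and 19.4 to 25.1 CPM (edgeR log2 fold change -0.72, adjusted p = 0.168). Both have short transcripts, of 510 and 1109 bases, and with the length trend removed the values were -0.40 and -0.52.

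**Figure D5:**
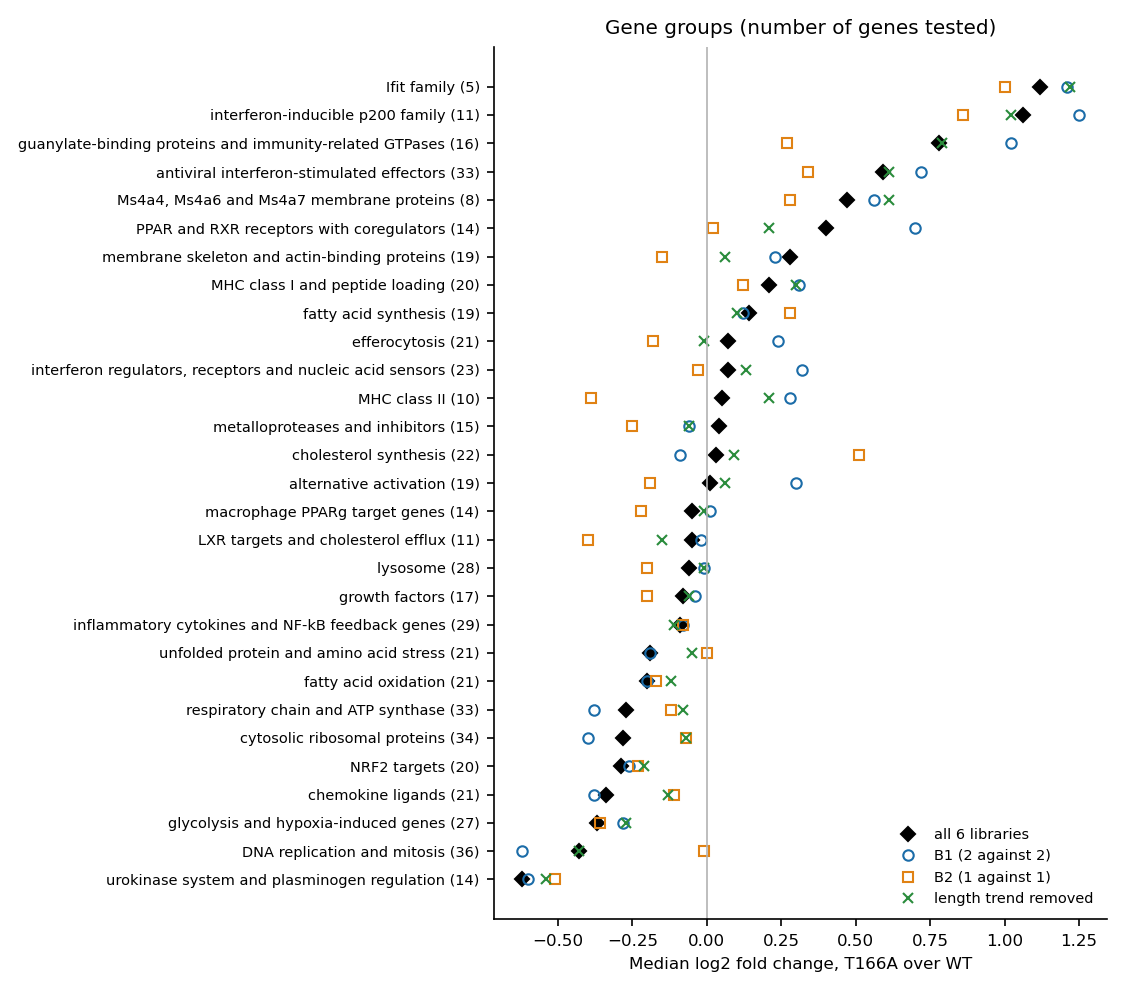
Median log2 fold change of T166A over WT in 29 gene groups, for all 6 libraries (black diamonds), for the 4 libraries of batch B1 (blue circles), for the 2 of batch B2 (orange squares), and with each library's length trend removed (green crosses). The Ifit and p200 families are the highest, at 1.12 and 1.06, and the urokinase system is the lowest, at -0.62.

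Cells that could remain in such cultures were looked at beside these genes. The neutrophil granule gene Ngp was at 8.27, 8.40 and 11.9 CPM in WT and 1.90, 2.73 and 5.08 CPM in T166A libraries (edgeR log2 fold change -1.67, SE 0.25, adjusted p = 0.0816). The 17 neutrophil markers summed to 228 to 361 CPM in WT and 182 to 297 CPM in T166A libraries, ranges that overlap. Of the 16 tested, 14 had a negative log2 fold change and 9 were lower at an unadjusted p under 0.05. Over all genes tested 6.32% were lower at that threshold. By edgeR 0 passed, and by DESeq2 6 were lower, against 1.09% of all genes tested. The median was -0.91, from -1.15 to -0.46 over the alternatives. The 11 tested markers of haematopoietic progenitors had a median of -0.86, from -1.0 to -0.50 over the alternatives, with 9 negative, and 1 was lower and 0 higher at an unadjusted p under 0.05. Dcstamp, the fusion protein of osteoclasts and giant cells, was at 36.1, 66.0 and 28.1 CPM in WT and 23.7, 27.3 and 9.70 CPM in T166A libraries (edgeR log2 fold change -1.21, adjusted p = 0.168), and the 12 osteoclast markers summed to 335 to 496 and 250 to 501 CPM. Markers of T and NK cells summed to 10.6 to 19.2 CPM in WT and 14.1 to 40.3 CPM in T166A libraries. Most of the higher sums was the single gene Cd4, with 36.6 of 40.3 CPM in T166A replicate 1 and 26.5 of 31.7 CPM in T166A replicate 2. Cd4 was at 6.31 to 16.01 CPM in the other 4 libraries. The part of any of these cell types in the differences between genotypes was not tested.

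The effect of T166A was compared between the batches in a fit with their product. It differed for 1 gene (0.00761% of those tested), Pcolce, which encodes an enhancer of collagen processing and was at 35.6 CPM in T166A replicate 3 and at 0.200 to 0.950 CPM elsewhere. With 1 library of each genotype, B2 gives no spread of its own, and 1534 genes had an unadjusted p under 0.05 in this test. Without T166A replicate 3, 18 genes were higher and none was lower by edgeR, where 1033 genes were lower at an unadjusted p under 0.05. The batch term then takes up the lone B2 library, so that this fit rests on the 4 libraries of B1. The fit without WT replicate 3 rests on the same 4 and called 0 genes, with the same log2 fold changes for Ifit2 and H2-Q7, 1.53 and 1.47, in both. B1 alone gave 21 higher and 0 lower. The count of 18 therefore cannot be read as an effect of leaving out T166A replicate 3. The 18 held 6 of the 9 calls, Ms4a4c, H2-Q7, H2-Q9, Ifi203, Ifit1 and Ifit2, and among the others, named after their values were seen, were the effectors Rsad2, Parp14 and Ifi44. In that fit Ifit3, Plau and Sptbn1 lay just past the threshold (edgeR adjusted p = 0.0503, 0.0514 and 0.0514, ranges over the alternatives 1.51e-10 to 0.619, 2.54e-11 to 0.619 and 1.06e-11 to 0.445).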

How the data were processed

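The values are raw counts per RefSeq transcript that the authors deposited as a table for the bone marrow-derived macrophages (whole numbers with a different total in each library). The submitters' processing notes name HISAT2 2.2.1 and featureCounts with the mm10 build, beside cutadapt 4.4 and FastQC 0.12.1. The strand setting, and how reads shared by several features were counted, is not stated in the sources used here. The table of skin wound macrophages was not used here.

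Of 45895 transcripts, 45744 were matched to a gene symbol through RefSeq and 34 through GENCODE. The other 117, which held 0.514% of the counts, were left out. Each of the 26165 genes took the counts of the transcript whose CPM summed highest over the 6 libraries, since summing over transcripts counted shared exons again (2.04 times the total). Depth was 40072513 to 44152639 gene counts, and precision is limited by 3 libraries a genotype more than by counting.

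The test was edgeR 4.0.16 in R 4.3.3 (TMM factors of 0.96 to 1.03, filterByExpr at a count of at least 10 and a total of at least 15, robust quasi-likelihood F test, batch and genotype as terms), with Benjamini-Hochberg adjustment over 13139 genes and a threshold of 0.05. The biological coefficient of variation was 0.279, with 3 residual degrees of freedom. Batch by genotype was tested with 2. The genotype test was first run on simulated counts that held less spread between libraries than these data. They had no batch effect, length trend or outlying library, so that run does not show how the test performs here. Values within B1 or B2 are differences of mean TMM-scaled log2 CPM (prior count 2), while printed CPM are not TMM-scaled. For the length alternative, each library's trend of log2 CPM with transcript length (loess, span 0.5) was subtracted through offsets.

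Alternatives were RLE size factors, no filter, a minimum count of 50, DESeq2 1.42.0, limma-voom (limma 3.58.1), a replicate block, no batch term, B1 alone, transcripts summed, the length trend removed (also with the block) and each library left out. For the replicate block, libraries were paired by replicate number, and the main test did not use this pairing. Deviations of same-numbered WT and T166A libraries from their group means correlated at 0.200, 0.115 and 0.185. Libraries of unlike number were not compared in this way, and replicate 3 is batch B2 in both genotypes. These values therefore do not establish the pairing.

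Genes, lists and tests were chosen with earlier results of these data known, so lists are described by counts and medians, with no test. Named genes were drawn from Pparg, those past the threshold, the 12 next higher and 12 next lower by p with a mean of at least 5 CPM and no overlap between genotypes (predicted genes left out), the 3 with the smallest p in each pathway list, the most abundant 2 of each cell type list, and the 6 stromal genes highest in T166A replicate 3. Not all of the last 3 kinds are printed. Adgre1, Itgam, Adipoq, Aim2, Cd36, Dock11, Ifi27, Ifi44, Ifit1bl2, Ifit3b, Ly6a, Nefl, Nefm, Nos2, Parp14, Pcolce, Plin2, Rsad2 and Serpinb2 fall outside this rule and were named after their values were seen. A gene that this rule selects is not reported here. Neuronal and similar lists were added after seeing the data. Promoter sequences are from RefSeq (GRCm38.p6), matched by symbol for 10403 of the 13139 genes tested.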

Additional observations from a re-analysis of the deposited data

Results flagged for a closer look

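The effect of T166A on Pcolce differed between the batches by 8.34 on the log2 scale (batch B2 minus batch B1, edgeR interaction, adjusted p = 0.0148). Pcolce was at 0.476, 0.344 and 35.6 CPM in T166A replicates 1, 2 and 3 and at 0.950, 0.679 and 0.200 CPM in WT replicates 1, 2 and 3. The difference rests on T166A replicate 3, the library in which the fibroblast markers summed to 630 CPM.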

How the results depend on the processing

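The count of genes higher in T166A, 8 in the test reported, was 9 with RLE size factors, 84 with no filter, 13 with a stricter filter, 248 with DESeq2, 148 with limma-voom, 8 with a replicate block, 0 with no batch term, 21 in batch B1 alone, 0 with transcripts summed, 16 with the length trend removed, and 15 with the length trend removed and a replicate block. The count of genes lower, 1, was in the same order 2, 21, 2, 143, 29, 2, 0, 0, 0, 2 and 3. Leaving out 1 library gave 0 to 18 genes higher and 0 to 8 lower. Without WT replicate 2 it gave 6 and 8, without T166A replicate 3 it gave 18 and 0, and without any of the other 4 libraries 0 and 0. The count of genes whose T166A effect differed between batches, 1, was 5 with RLE size factors, 245 with no filter, 4 with a stricter filter, 173 with DESeq2 and 18 with the length trend removed. All 9 calls were kept with RLE size factors, with either filter, with DESeq2 and with limma-voom, and 8 of them with the length trend removed. The replicate block kept 8 of the 9, lost Ifi203, added Dock11 and Arg1, and changed no other call. Where transcripts were summed, 1557 genes still had an unadjusted p under 0.05.

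The sign of Pparg turned to 0.07 with the length trend removed (with or without the replicate block) and with 1 library left out it ranged from -0.03 to 0.01 (T166A replicate 2 left out). That of Cd74 ranged from -0.01 (T166A replicate 1 left out) to 0.36. The median of the Ifit family stayed between 1.07 and 1.22 and that of the p200 family between 0.87 and 1.23 over all 17 alternatives. For 34 cell type and stromal genes, given as levels only, the sign of the fold change turned in 18 genes, 65 times over the 17 alternatives, and these turns are not among those given above. The cause of these changes was not tested. With 3 libraries a genotype, of which 1 each in B2, a result that missed the threshold does not show that the genotypes did not differ.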

Other observations

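Batch B2 was compared with batch B1 over both genotypes. With genotype in the fit, 25 genes were higher and 79 were lower in B2 (edgeR adjusted p under 0.05). This batch term pools the genotypes, and the counts do not show a difference within each. B2 holds 1 library of each genotype, and that of T166A is replicate 3, which carried the fibroblast and nerve transcripts. Ly6a, an interferon-responsive surface protein chosen after its values were seen, was at 253, 232 and 604 CPM in WT replicates 1, 2 and 3 and at 496, 408 and 1057 CPM in T166A replicates 1, 2 and 3, so that it was higher in T166A within each batch and higher in B2 within each genotype. Its log2 fold change for T166A was 0.84 (edgeR adjusted p = 0.0816). The integrin gene Itgax, a dendritic cell marker, was at 213, 180.5 and 67.8 CPM in WT and 161, 156 and 35.3 CPM in T166A libraries.

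The median log2 fold change was 0.07 over 21 tested efferocytosis genes and 0.04 over 15 metalloproteases and their inhibitors, and 0 passed the edgeR test in either direction. At an unadjusted p under 0.05, 3 of the first were higher and 0 lower, and of the second 3 were higher and 4 lower. Over all genes tested 6.51% were higher and 6.32% lower. Itgav, an integrin that bridges dying cells, was at 63.6 to 76.8 CPM in WT and 97.5 to 109 CPM in T166A libraries (edgeR log2 fold change 0.49, adjusted p = 0.203; 0.16 with the length trend removed). Mertk, a receptor for dying cells, was at 56.9, 41.3 and 41.4 CPM in WT and 97.8, 90.1 and 46.8 CPM in T166A libraries, values that overlap, with a log2 fold change of 0.95 in B1 and 0.08 in B2. Mmp14, a membrane metalloprotease, was at 43.0, 34.5 and 72.7 CPM in WT and 59.9, 55.4 and 103 CPM in T166A libraries, which also overlap (edgeR log2 fold change 0.52, adjusted p = 0.212). Among lysosomal genes the cathepsin gene Ctsk was at 48.1 to 60.0 CPM in WT and 30.7 to 42.9 CPM in T166A libraries (edgeR log2 fold change -0.56, adjusted p = 0.196), while the median over 28 lysosomal genes was -0.06.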
